A study of Arabidopsis thaliana with 8 samples.

Results

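The response of wild-type roots of Arabidopsis thaliana to aluminium (Al) was measured by RNA sequencing of 4 libraries. The Al-treated group (2 libraries) came from seedlings of the wild type Col, 6 d old, kept for 6 h in nutrient solution with 10 µM AlCl3, and the control group (2 libraries) from the same line and age kept for 6 h in solution without Al. Each RNA sample was made from the roots of many seedlings, so all cell types of the root were pooled. The series also holds 4 libraries of cml24-2, a mutant line of the calmodulin-like gene CML24, with and without Al. They entered the fit to estimate the spread between replicates and were compared with wild type only for the size of the Al response. All genes with enough reads were members: 20262 of the 24279 genes listed in any of the 8 libraries were tested. Whether replicate libraries stand for separately grown seedlings is not stated by the labels, and the p-values therefore cover only the spread among these samples, which may be technical.

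In acid solution Al is present as a trivalent cation that binds to the pectin of the cell wall and to membranes, and root elongation slows within hours. Arabidopsis roots keep Al out mainly by releasing malate through the anion channel ALMT1, whose gene is switched on by the zinc finger protein STOP1. Other known defences are the modification of the wall, the transfer of Al into the vacuole, and the detoxification of reactive oxygen.

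ALMT1 (AT1G08430) served as the check of the treatment. It had 53.2 and 47 CPM in Al-treated roots, against 0.793 and 1.07 CPM in control roots (log2 fold change 5.74, SE 0.27, edgeR adjusted p = 8.5e-07). CPM are read counts scaled to a common library size, and the standard error (SE) and p come from edgeR's quasi-likelihood test adjusted over all genes tested. Both treated libraries lay far above both controls. The 250 bases before the annotated start of ALMT1 are shown because this promoter is the best known target of the Al response. Capitals mark matches to CGCGT on either strand, the core bound by calmodulin-binding CAMTA factors, which overlap here in a single palindrome (TAIR10.1, chr1:2658352-2658601, plus strand):
ALMT1: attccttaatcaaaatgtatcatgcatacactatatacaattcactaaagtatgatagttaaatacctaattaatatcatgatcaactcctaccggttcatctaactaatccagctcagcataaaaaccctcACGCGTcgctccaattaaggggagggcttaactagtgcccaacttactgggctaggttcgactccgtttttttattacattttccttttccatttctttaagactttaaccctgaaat

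The test called 5089 genes higher (25.1% of those tested) and 5238 lower (25.9%). Of the genes called, 1717 rose at least 2-fold (8.47% of those tested) and 2359 fell at least 2-fold (11.6%). The median log2 fold change over all genes was -0.00048, a value that TMM scaling centres near 0, and all changes are relative to that centre. Counts of list members called higher or lower are read against the shares of 25.1 and 25.9%. The lists were chosen with earlier results of these data known, so the counts describe the lists and do not test them. Of 10 tested genes of Al exclusion and tolerance, 7 rose and 1 fell. The libraries of the groups did not overlap for 10326 of the 10327 genes called, which compares with 37.9% of all genes tested whose Al-treated libraries both lay above the controls and 37.8% whose both lay below. Changes of at least 16-fold were found in 112 genes that rose and 159 that fell. The genes that rose at least 2-fold made up 18.3 and 18.7% of all FPKM (counts scaled by gene length and library size) in Al-treated roots, against 5.39 and 5.99% in control roots. Those that fell at least 2-fold made up 5.10 and 5.19% in Al-treated roots, against 16.6 and 17.5% in control roots. Both sets were picked by their change in these same libraries, so the direction of the shifts follows from the choice. The balance differed with the level of expression. Among genes with a mean of 1 to 5 FPKM, 13.3% rose and 27.7% fell, among those with 20 to 100 FPKM 37.0% rose and 24.5% fell, and among the 1097 genes above 100 FPKM 28.7% rose and 39.9% fell.

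Library totals were 11743433 to 12188917 expected counts in the 4 wild-type libraries, so 3 counts in a library corresponded to 0.238 to 0.260 CPM. The 2 Al-treated libraries differed by a standard deviation of 0.190 on the log2 scale over 15318 genes, with 13 genes over 2-fold apart. The 2 control libraries differed by 0.380 over 15833 genes, with 340 genes over 2-fold apart, of which 254 were higher in replicate 2. Any Al-treated library differed from any control by 0.962 to 0.979, with 2823 to 3001 genes over 2-fold apart. Where a count moved by more than 1.5 times when 1 library was left out, the count without it is given in brackets. In brackets after the CPM of a gene stand the log2 fold change and its SE. The expected counts of some genes were not whole in all 4 wild-type libraries because reads were shared with other genes, and the values of EXT4, AT2G43150, CIB1, AT3G10113, AT3G46080, AGP31, FAR4, MYB53, NLM1, NIP1;2, FIB2, PDIL1-1, CNGC13, CRK11, PAD3, WRKY40 and GLP6 are less certain for that reason.

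**Figure D1:**
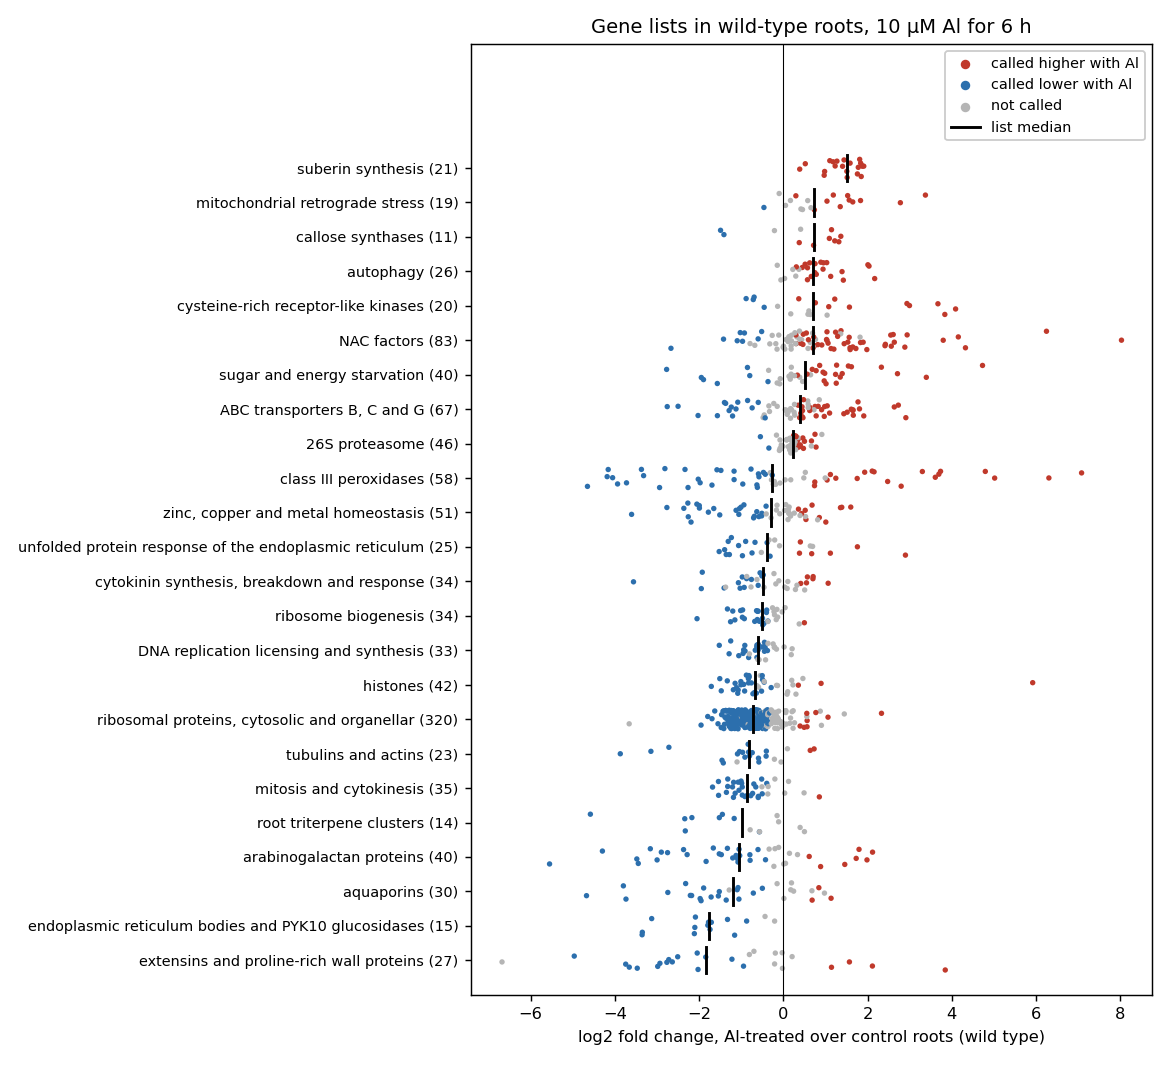
Log2 fold change of Al-treated over control roots for every tested member of 24 gene lists, with the number of tested members in brackets. Each point is a gene, red where it was called higher, blue where it was called lower and grey where it was not called, and the black bar is the list median. All 21 suberin genes lie to the right of 0, and most ribosomal protein, aquaporin and endoplasmic reticulum body genes lie to the left.

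Among the 20 genes with the largest rises relative to control roots, several had few or no counts in control roots. Ranking by ratio favours genes with low control levels. CIB1, a basic helix-loop-helix factor, had no counts in the control libraries and 8.96 and 9.96 CPM in the Al-treated libraries, which is at least 77.8-fold higher by a floor of 3 counts over both controls. AT3G10113, a homeodomain-like protein, and PP2-B7, an F-box protein of the phloem protein family, likewise had no control counts, and rose at least 60.7-fold and at least 28.6-fold. Counting intervals and floors cover counting error only. AT1G71140, a MATE efflux carrier, was 221-fold higher (95% counting interval 75.4 to 1076), with 25.5 and 28.3 CPM in Al-treated roots, against 0.0793 and 0.165 CPM in control roots. AATP1, an AAA-type ATPase, had 247 and 264 CPM in Al-treated roots, against 3.41 and 3.63 CPM in control roots (6.18, SE 0.14). AT1G21520, which encodes a protein of unknown function, had 52.4 and 57.6 CPM in Al-treated roots, against 0.476 and 1.16 CPM in control roots (6.07, SE 0.24). WRKY8, a stress-related transcription factor, was 103-fold higher (95% counting interval 18 to 4094), and NAC071, a factor known from the healing of cut tissue, 95.3-fold (16.7 to 3805). In each of these genes both Al-treated libraries lay above both controls, which the rule for this set of 20 required. The inositol phosphatase 5PTASE11 (6.39), the zinc finger gene AT3G46080 (6.69) and the amino acid transporter AT5G16740 (119-fold higher, 95% counting interval 32.5 to 987) belonged to the same set of 20, whose log2 fold changes ran down to 5.96 for the glutathione transferase GSTU4.

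The 20 largest falls were in genes of many kinds. AT3G19430, which encodes a proline-rich protein related to late embryogenesis abundant proteins, had 2.9 and 1.73 CPM in Al-treated roots, against 219.95 and 273 CPM in control roots (-6.72, SE 0.20). The arabinogalactan protein AGP30 had 2.07 and 1.21 CPM in Al-treated roots, against 81 and 74.9 CPM in control roots (-5.55, SE 0.23), and the pectin methylesterase inhibitor family gene AT4G25250 had 0.415 and 0.606 CPM in Al-treated roots, against 24.7 and 26.2 CPM in control roots (-5.62, SE 0.25). CER4, a reductase that makes fatty alcohols for waxes, had 0.415 and 0.0866 CPM in Al-treated roots, against 9.99 and 12.1 CPM in control roots (-5.39, SE 0.40). MTPA1, a zinc carrier, was 104-fold lower (95% counting interval 18.3 to 4148). The glyoxal oxidase-related gene AT1G19900 (-5.67) and the PLAC8 family gene AT1G49030 (-5.66) fell by similar amounts. AT1G48070, a thioredoxin-like gene, and AT5G26070, a hydroxyproline-rich protein gene, had no counts in either Al-treated library and were at least 11.1-fold and at least 9.23-fold lower. In all of these genes both Al-treated libraries lay below both controls, which the rule for this set of 20 required.

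The largest gains and losses in the amount of transcript were in abundant genes. FPKM are used for these levels because they are scaled by gene length. AT2G43150, a proline-rich extensin-like gene, had 7929 and 9898 FPKM in Al-treated roots, against 3426 and 4815 FPKM in control roots (1.14, SE 0.19), and was the most abundant of them. The hydroxyproline-rich genes AT4G38080 (3909 and 3627 FPKM with Al, against 722 and 1213 FPKM without) and PELPK1 (2236 and 2221 FPKM with Al, against 459.6 and 733 FPKM without) also rose. The dehydrin ERD14 had 1392 and 1243 FPKM in Al-treated roots, against 450.3 and 399 FPKM in control roots. EXT4, an extensin that cross-links the wall, showed the steepest gain among the wall genes of this set, with 1937 and 2271 FPKM in Al-treated roots, against 131 and 168 FPKM in control roots (3.84, SE 0.17). Of the 12 largest gains, 8 were proline-, hydroxyproline- or glycine-rich proteins, lipid-transfer-like proteins or extensins by their annotation. The glycine-rich genes AT1G55990 and AT4G33610 share reads with other genes, and their levels are uncertain. The largest loss was that of AT5G33355, a defensin-like gene, with 145 and 115 FPKM in Al-treated roots, against 4322 and 3488 FPKM in control roots, and AT3G59930, another defensin-like gene, had 180.01 and 187 FPKM with Al, against 2479 and 2007 FPKM without. Reads of both were partly shared with other genes. AGP31, an arabinogalactan protein, had 203 and 199 FPKM in Al-treated roots, against 1184 and 1539 FPKM in control roots.

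**Figure D2:**
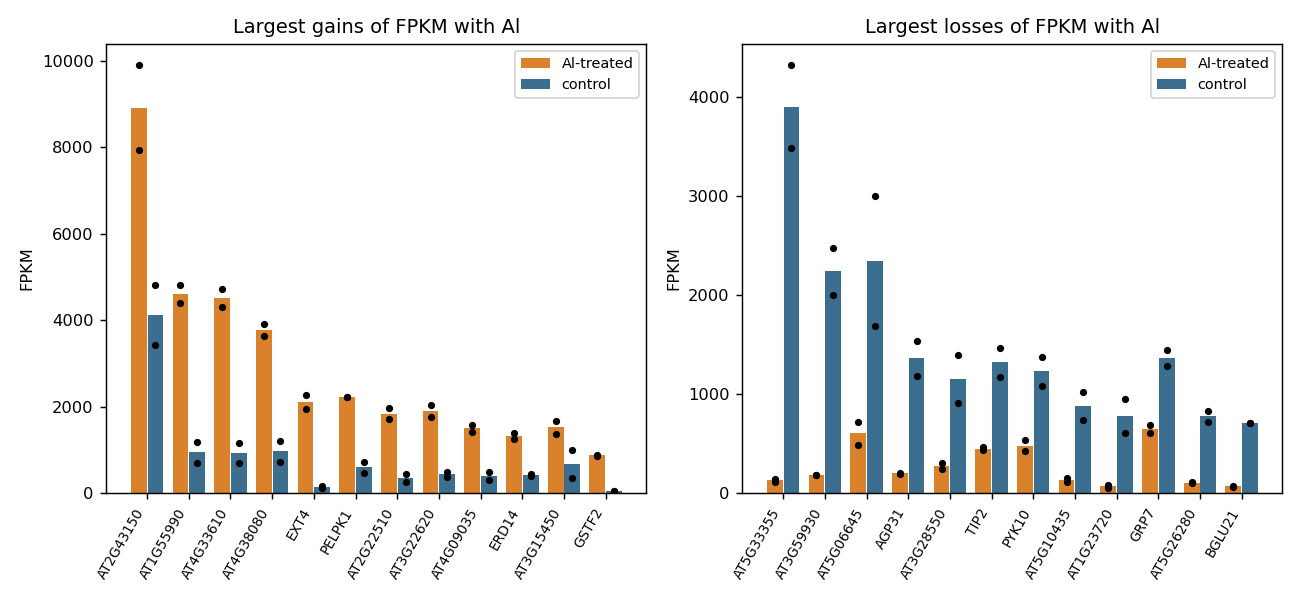
FPKM of the 12 genes with the largest gain (left) and the 12 with the largest loss (right) among genes called at least 2-fold. Bars are group means, orange for Al-treated and blue for control roots, and points are the libraries. AT2G43150, at the top left, had 7929 and 9898 FPKM in Al-treated roots, against 3426 and 4815 FPKM in control roots.

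The listed genes of suberin synthesis all rose. Suberin is a waxy polyester that seals the walls of the endodermis and controls what enters the inner root. All 21 tested members were called higher, 17 of them by at least 2-fold, and their median log2 fold change was 1.51, beside a share of 25.1% higher and a median near 0 over all genes. Among the factors that switch on the pathway, MYB107 had 22.8 and 24.6 CPM in Al-treated roots, against 4.44 and 8.51 CPM in control roots (1.88, SE 0.24), and MYB41 had 32.8 and 38.7 CPM in Al-treated roots, against 6.11 and 13.5 CPM in control roots (1.87, SE 0.27). MYB93 (1.44), MYB53 (1.51) and MYB9 (1.23) were also called higher, as was MYB92 (0.39, a call lost without Al replicate 1 or 2 or control replicate 1). In all 6 factors both Al-treated libraries lay above both controls. Among the enzymes, the hydroxylase CYP86B1, which makes very long chain building blocks, had 261 and 305 CPM in Al-treated roots, against 59.9 and 101 CPM in control roots (1.81, SE 0.22). GPAT5, which couples acyl chains to glycerol, had 106 and 123 CPM in Al-treated roots, against 30.9 and 45.3 CPM in control roots (1.58, SE 0.21), and FAR4, which makes fatty alcohols, had 141 and 136 CPM in Al-treated roots, against 35.8 and 41 CPM in control roots (1.85, SE 0.11). RWP1, which adds ferulate, had 263 and 323 CPM in Al-treated roots, against 87.3 and 134 CPM in control roots (1.41, SE 0.20). These enzymes were higher in both Al-treated libraries than in either control. ABCG6, an exporter of suberin monomers, had 558 and 637 CPM in Al-treated roots, against 121 and 197 CPM in control roots (1.91, SE 0.23). The control libraries differed in this list: the median member was 0.55 higher on the log2 scale in control replicate 2 than in replicate 1. Both Al-treated libraries lay above both controls for all 21 genes, as for 37.9% of all genes tested. The groups did not overlap for nearly every gene called, so this adds little to the calls.

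**Figure D3:**
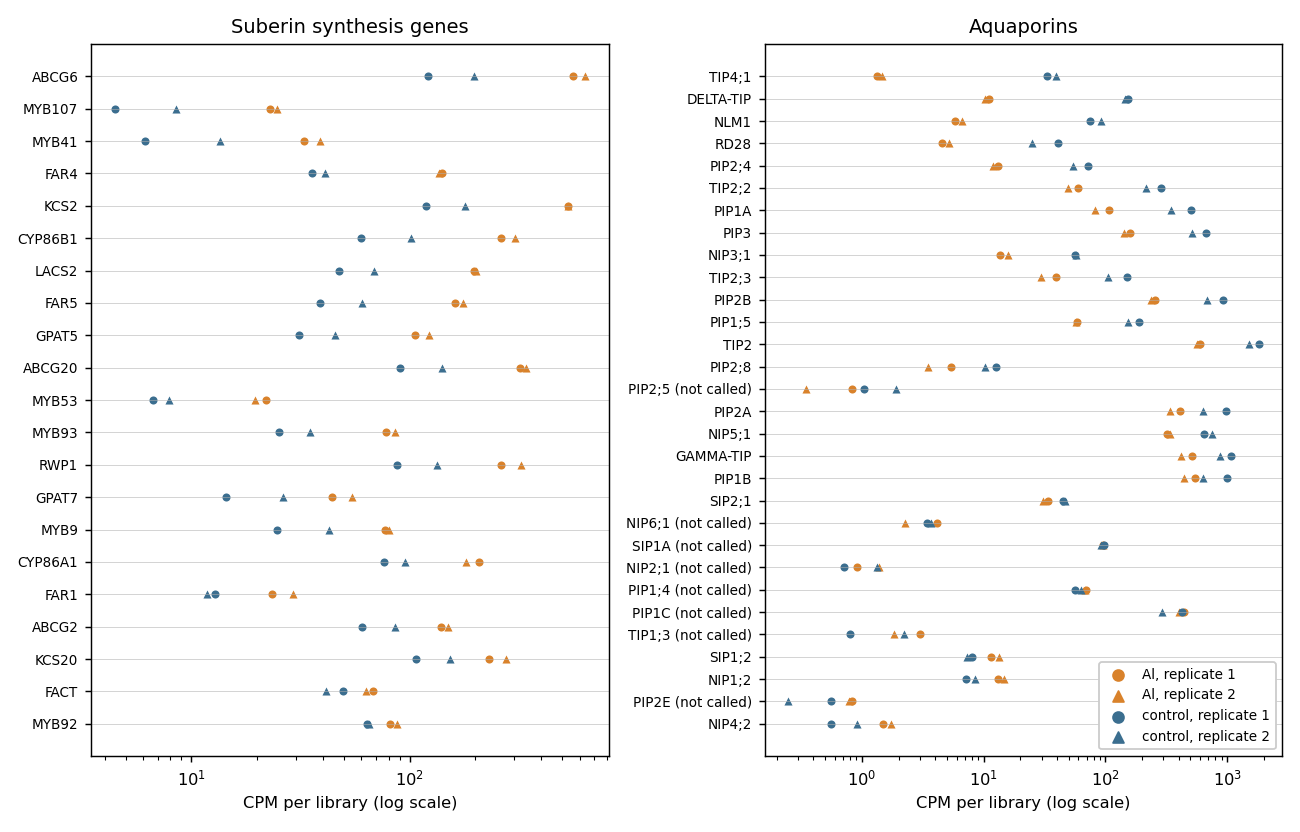
CPM of the 21 suberin genes (left) and 30 aquaporins (right) in each wild-type library on a log scale. Orange marks Al-treated and blue control libraries, circles replicate 1 and triangles replicate 2. For every suberin gene both orange marks lie to the right of both blue marks, and for TIP4;1, DELTA-TIP and NLM1 they lie far to the left.

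Callose synthases, which make the polymer deposited in walls and at plasmodesmata, rose in 7 of 11 tested members and fell in 2 (median 0.72). GSL05, the wound and pathogen callose synthase, had 158 and 217 CPM in Al-treated roots, against 74.4 and 86.8 CPM in control roots (1.22, SE 0.15). GSL8, needed for the new wall of dividing cells, had 349 and 405 CPM in Al-treated roots, against 171 and 170.04 CPM in control roots (1.14, SE 0.10). GSL10 had 402 and 451 CPM in Al-treated roots, against 197 and 203 CPM in control roots (1.09, SE 0.10). CALS1 was one of the members that fell (-1.41), though its reads were partly shared with a relative. The 8 tested cellulose synthases changed little, and 2 were called lower (1 without Al replicate 1 or control replicate 2, and 5 without control replicate 1).

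Proteins that stiffen or decorate the wall went in both directions. Of 27 tested extensin and proline-rich genes, 4 rose and 15 fell, with a median of -1.84 (-0.76 without control replicate 2). The control libraries differed in this list, whose median member was 0.78 higher on the log2 scale in control replicate 2 than in replicate 1. ELP, an extensin-like protein, had 8.21 and 7.97 CPM in Al-treated roots, against 243 and 263 CPM in control roots (-4.97, SE 0.24), and PRP3, a proline-rich protein of root hairs, had 20.15 and 24.1 CPM in Al-treated roots, against 139.5 and 211 CPM in control roots (-2.98, SE 0.25). Both wall proteins were lower in each Al-treated library than in either control. LRX1, a leucine-rich extensin of root hairs, had 25.8 and 36.1 CPM in Al-treated roots, against 147 and 261 CPM in control roots (-2.72, SE 0.28), while its relative LRX3 had 364 and 475 CPM in Al-treated roots, against 86.4 and 197 CPM in control roots (1.57, SE 0.33). Many extensin genes are repetitive and share reads, so single members such as AT1G23720 and AT3G28550 are uncertain. Arabinogalactan proteins fell in 25 of 40 tested members and rose in 7 (median -1.04). AGP13 had 2.41 and 2.08 CPM in Al-treated roots, against 44.9 and 43.8 CPM in control roots (-4.30, SE 0.17), AGP3 had 8.79 and 12.1 CPM in Al-treated roots, against 101 and 127 CPM in control roots (-3.45, SE 0.21), and the fasciclin-like FLA9 had 39.1 and 33.1 CPM in Al-treated roots, against 308 and 337 CPM in control roots (-3.16, SE 0.12). All of these lay below the controls in both Al-treated libraries. AGP2 ran the other way, with 855 and 884 CPM in Al-treated roots, against 175 and 225 CPM in control roots (2.12, SE 0.13). Pectin methylesterases and their inhibitors, which set the charge of pectin, fell in 21 of 49 and rose in 10. PME5 had 0.581 and 0.52 CPM in Al-treated roots, against 13.4 and 8.59 CPM in control roots (-4.30, SE 0.38), and AT3G10720, an abundant pectin methylesterase, had 49 and 56 CPM in Al-treated roots, against 324 and 455 CPM in control roots (-2.89, SE 0.18).

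Class III peroxidases, secreted enzymes that either cross-link or loosen the wall, split into both directions: 19 of 58 rose, 17 of them at least 2-fold, and 28 fell, 19 of them at least 2-fold. AT4G36430 had 675 and 683 CPM in Al-treated roots, against 8.17 and 9 CPM in control roots (log2 fold change 6.30, SE 0.16, edgeR adjusted p = 1.4e-07). PRX52, which acts in lignin formation, had 119 and 103 CPM in Al-treated roots, against 1.19 and 0.413 CPM in control roots (7.08, SE 0.24), and PA2 had 25.4 and 27.7 CPM in Al-treated roots, against 0.635 and 0.991 CPM in control roots (5.02, SE 0.18). These peroxidases, low in control roots, were far higher in both Al-treated libraries. AT5G24070 had 2.82 and 2.51 CPM in Al-treated roots, against 63.9 and 70.9 CPM in control roots (-4.65, SE 0.13), and AT1G30870 had 5.81 and 5.11 CPM in Al-treated roots, against 83.7 and 98.3 CPM in control roots (-4.06, SE 0.20). AT4G26010, which is known from root hairs, had 12.4 and 14.2 CPM in Al-treated roots, against 153 and 199.6 CPM in control roots (-3.73, SE 0.18). NADPH oxidases, which make the superoxide that feeds peroxidases, fell in 3 of 8 tested members, among them RHD2 (RBOHC), needed for hair growth, with 20.5 and 21.8 CPM in Al-treated roots, against 86 and 119 CPM in control roots (-2.28, SE 0.16). A single NADPH oxidase, AT1G19230, rose (1.20), and 2 rose without control replicate 2.

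Water channels fell broadly. Of 30 tested aquaporins, 19 were called lower, 17 of them by at least 2-fold, and 3 higher, with a median of -1.19. Among those of the vacuole membrane, DELTA-TIP had 11.1 and 10.2 CPM in Al-treated roots, against 152 and 145 CPM in control roots (-3.80, SE 0.11), and TIP4;1 had 1.33 and 1.47 CPM in Al-treated roots, against 32.9 and 39.1 CPM in control roots (-4.68, SE 0.22). TIP2;2 had 59.1 and 49.6 CPM in Al-treated roots, against 288 and 215 CPM in control roots (-2.21, SE 0.16). In these channels the groups of libraries lay far apart. Among those of the plasma membrane, PIP2;4 had 13.1 and 12 CPM in Al-treated roots, against 71.7 and 54 CPM in control roots (-2.32, SE 0.17), whereas PIP1A, PIP2B and PIP3, at -2.18, -1.72 and -1.98, share reads with close relatives. NLM1 (NIP1;1), which also carries arsenite, had 5.81 and 6.58 CPM in Al-treated roots, against 74.1 and 91.3 CPM in control roots (-3.74, SE 0.14), and the boric acid channel NIP5;1 had 320.5 and 339.8 CPM in Al-treated roots, against 648 and 745 CPM in control roots (-1.08, SE 0.12). The exception best known in this context is NIP1;2, which carries Al malate into root cells, with 13.1 and 14.8 CPM in Al-treated roots, against 7.14 and 8.42 CPM in control roots (0.84, SE 0.14). The 2 controls lay closer here than in the suberin list, with a median difference of -0.20 on the log2 scale for replicate 2 minus replicate 1.

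Carriers that take up zinc and sulfate were among the genes that fell. Of 51 tested genes of zinc, copper and iron balance, 24 fell and 10 rose (6 without Al replicate 1), with a median of -0.29 (-0.05 without control replicate 1). The zinc transporters ZIP3, ZIP5 and ZIP2 were all lower. ZIP3 had 47.7 and 51.9 CPM in Al-treated roots, against 301 and 376 CPM in control roots (-2.77, SE 0.16), ZIP5 had 32.7 and 37.9 CPM in Al-treated roots, against 141 and 152 CPM in control roots (-2.05, SE 0.12), and ZIP2 had 35.9 and 41.6 CPM in Al-treated roots, against 123 and 144 CPM in control roots (-1.78, SE 0.15). All lay below the controls in both Al-treated libraries. NAS1, an enzyme of the chelator nicotianamine, had 3.07 and 4.07 CPM in Al-treated roots, against 36.7 and 50.2 CPM in control roots (-3.60, SE 0.34), and IREG2, a vacuolar iron and nickel carrier, had 8.13 and 9.61 CPM in Al-treated roots, against 48.7 and 42.6 CPM in control roots (-2.36, SE 0.17). The metallothionein MT2A had 115 and 104 CPM in Al-treated roots, against 50.5 and 34.7 CPM in control roots (1.36, SE 0.17), higher in both Al-treated libraries than in either control. Of the sulfate carriers that take sulfate from the soil, SULTR1;2 (AT1G78000) had 34.3 and 36.4 CPM in Al-treated roots, against 192 and 187 CPM in control roots (-2.42, SE 0.20), and SULTR1;1 (AT4G08620) had 2.74 and 3.38 CPM in Al-treated roots, against 21.1 and 27.7 CPM in control roots (-2.99, SE 0.24). Over the list of sulfate assimilation and glutathione synthesis, 8 of 32 tested genes rose and 7 fell (4 without Al replicate 1), shares near those of all genes. Among the 8 that rose were SERAT2;1 (1.22), an enzyme of the route to cysteine, and the glutathione reductase GR1 (1.15).

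The translation machinery was lower. Of 320 tested genes annotated as ribosomal proteins, 255 fell, 83 of them by at least 2-fold, and 8 rose, with a median of -0.72, which corresponds to modest decreases in very many genes. AT4G12600, of the L7Ae family, had 29.5 and 31.3 CPM in Al-treated roots, against 100.2 and 111 CPM in control roots (-1.80, SE 0.13), and AT5G60670, of the L11 family, had 20.15 and 21.9 CPM in Al-treated roots, against 68.9 and 67.3 CPM in control roots (-1.70, SE 0.09). AT5G59850, of the S8 family, had 81.2 and 85.1 CPM in Al-treated roots, against 217 and 226 CPM in control roots (-1.41, SE 0.12). The strongest rise, of AT1G53560 (2.33), was in a gene annotated to the L18ae family. Genes that assemble ribosomes in the nucleolus fell in 23 of 34 and rose in 1 (median -0.51). FIB2, a fibrillarin that methylates ribosomal RNA, had 45.5 and 46.7 CPM in Al-treated roots, against 169 and 213 CPM in control roots (-2.05, SE 0.13), and the nucleolin NUC-L1 had 217 and 239.9 CPM in Al-treated roots, against 486 and 566 CPM in control roots (-1.20, SE 0.12). A promoter of this class is shown for AT3G23390, a zinc-binding ribosomal protein, with 53.7 and 46.3 CPM in Al-treated roots, against 101 and 101 CPM in control roots (-1.02, SE 0.11). Capitals mark TGGGCC or its reverse complement, the site II element bound by TCP factors, of which some overlap (TAIR10.1, chr3:8375083-8375332, plus strand):
AT3G23390: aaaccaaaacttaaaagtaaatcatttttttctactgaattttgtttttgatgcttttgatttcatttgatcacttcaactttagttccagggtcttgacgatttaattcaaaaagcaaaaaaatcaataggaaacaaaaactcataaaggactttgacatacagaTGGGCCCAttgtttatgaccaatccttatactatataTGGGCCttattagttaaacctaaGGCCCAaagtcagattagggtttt

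Site II was found in 55% of the 320 ribosomal protein promoters and 50% of the 34 ribosome assembly promoters, against 18.3% of the promoters of all genes tested, counting 250 bases before to 50 after the start on both strands. The telo box AAACCCTAA was found in 20.6 and 26.5% of the same promoters, against 3.22% of all. These shares describe the promoters and not the response to Al.

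Genes of autophagy were higher. Autophagy genes, whose products enclose cell contents for breakdown in the vacuole, rose in 20 of 26 tested members and the other 6 were not called, with a median of 0.70. NBR1, the receptor that brings ubiquitin-tagged aggregates to autophagy, had 1297 and 1223 CPM in Al-treated roots, against 344 and 271 CPM in control roots (2.03, SE 0.13). ATG8D, a ubiquitin-like protein of the autophagosome, had 134 and 110.3 CPM in Al-treated roots, against 32.4 and 28.2 CPM in control roots (2.01, SE 0.13). Its relative ATG8H had 112 and 102 CPM in Al-treated roots, against 40.9 and 39.1 CPM in control roots (1.42, SE 0.11). The libraries of the groups did not overlap for these genes. APG9, a membrane protein needed to build the autophagosome, had 111 and 117 CPM in Al-treated roots, against 51.6 and 53.1 CPM in control roots (1.12, SE 0.08). Of 46 tested subunits of the 26S proteasome, 17 rose (9 without Al replicate 1 and 11 without Al replicate 2), each by less than 2-fold, and 2 fell (1 when any of the 4 wild-type libraries was left out). RPN13, a ubiquitin receptor of the proteasome, had 67 and 65.8 CPM in Al-treated roots, against 39.6 and 38 CPM in control roots (0.78, SE 0.09). Genes of the unfolded protein response of the endoplasmic reticulum went both ways, with 13 of 25 members lower and 6 higher. SHD, the reticulum's HSP90, had 288 and 289 CPM in Al-treated roots, against 658 and 773 CPM in control roots (-1.31, SE 0.10), and the disulfide isomerase PDIL1-1 had 286 and 297 CPM in Al-treated roots, against 566 and 654 CPM in control roots (-1.06, SE 0.10). Both folding proteins were lower in each Al-treated library than in either control. The membrane-bound factor BZIP60 had 139 and 140.1 CPM in Al-treated roots, against 39.7 and 42.9 CPM in control roots (1.76, SE 0.12), and BZIP28 had 183 and 193 CPM in Al-treated roots, against 82.9 and 90.6 CPM in control roots (1.12, SE 0.09).

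Genes of dividing cells were lower. Histones fell in 27 of 42 tested genes and rose in 3 (median -0.67). The histone H3 gene AT1G09200 had 44.6 and 43.6 CPM in Al-treated roots, against 118 and 133 CPM in control roots (-1.51, SE 0.12), whereas AT1G75600, also annotated as a histone, had 19.2 and 16.3 CPM in Al-treated roots, against 0.317 and 0.248 CPM in control roots (5.92, SE 0.26). Genes of DNA replication fell in 21 of 33 (11 without Al replicate 2), among them CDT1A, which licenses origins, with 14.5 and 13.8 CPM in Al-treated roots, against 36.5 and 44.8 CPM in control roots (-1.52, SE 0.13). Genes of mitosis and cytokinesis fell in 27 of 35 and rose in 1, with a median of -0.86. The aurora kinase AUR2 had 6.72 and 4.76 CPM in Al-treated roots, against 18.3 and 15.2 CPM in control roots (-1.54, SE 0.19), and the mitotic cyclin CYCB1;1 had 5.97 and 4.59 CPM in Al-treated roots, against 13.3 and 13.1 CPM in control roots (-1.32, SE 0.20). Both were lower in each Al-treated library than in either control. KINESIN-12B, which guides the new cell plate, had 11.7 and 13.2 CPM in Al-treated roots, against 26.1 and 30.5 CPM in control roots (-1.19, SE 0.15). The mitosis-specific activator letters CNAACGG were found in 37.1% of the 35 promoters of this list and 38.1% of the 42 histone promoters. They were found in 5.99% of all and in 6.19% of the promoters of genes that fell at least 2-fold. The shares of the lists thus describe their promoters and not the response to Al. The promoter of KINESIN-12B is shown with matches on either strand in capitals (TAIR10.1, chr3:8518886-8519135, plus strand):
KINESIN-12B: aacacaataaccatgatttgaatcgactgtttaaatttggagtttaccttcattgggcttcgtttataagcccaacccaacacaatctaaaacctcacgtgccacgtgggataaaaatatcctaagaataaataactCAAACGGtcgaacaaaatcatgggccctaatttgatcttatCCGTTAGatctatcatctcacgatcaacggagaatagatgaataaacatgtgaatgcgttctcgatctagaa

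Tubulins and actins, the building blocks of the cytoskeleton, fell in 17 of 23 and rose in 2 (1 without Al replicate 2 or control replicate 2), with a median of -0.83. TUB5 had 17.5 and 15.7 CPM in Al-treated roots, against 149.7 and 144 CPM in control roots (-3.15, SE 0.10). TUB1, which shares part of its reads with other tubulins, had 6.55 and 7.45 CPM in Al-treated roots, against 93.4 and 112 CPM in control roots (-3.87, SE 0.13). Markers of the stem cell niche and meristem were mixed, with 4 of 18 higher and 7 lower. PLT2, a master factor of the meristem, had 6.3 and 5.89 CPM in Al-treated roots, against 11.6 and 13 CPM in control roots (-1.01, SE 0.14), and the auxin response factor MP had 128 and 125 CPM in Al-treated roots, against 34.7 and 33 CPM in control roots (1.90, SE 0.09).

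Genes of the answer to low sugar rose more often than they fell. Of 40 tested genes known from sugar starvation and its kinase SnRK1, 20 rose, 12 of them by at least 2-fold, and 7 fell (4 without Al replicate 1 and 3 without Al replicate 2). ASN1, an asparagine synthetase that stores nitrogen when carbon is short, had 955 and 907 CPM in Al-treated roots, against 134 and 43.3 CPM in control roots (3.39, SE 0.46), and the glucosidase DIN2 had 156 and 121 CPM in Al-treated roots, against 6.27 and 4.13 CPM in control roots (4.73, SE 0.21). The sugar carrier MSS1 (STP13) had 79.9 and 77.1 CPM in Al-treated roots, against 10.9 and 13 CPM in control roots (2.71, SE 0.13), and the factor bZIP1 had 69.2 and 56.5 CPM in Al-treated roots, against 15 and 9.99 CPM in control roots (2.33, SE 0.23). In this list the controls differed too, with a median of -0.58 on the log2 scale for control replicate 2 minus replicate 1. Several genes of organic acid metabolism bear on malate, the anion that ALMT1 releases. ICL, isocitrate lyase of the glyoxylate cycle, had 550.3 and 477 CPM in Al-treated roots, against 31.3 and 46.6 CPM in control roots (3.72, SE 0.23), and NADP-ME1, a malic enzyme that consumes malate, had 22.2 and 21.7 CPM in Al-treated roots, against 1.03 and 1.16 CPM in control roots (4.31, SE 0.18). Both enzymes were higher in each Al-treated library than in either control. PPC3, a carboxylase that supplies malate, had 140.4 and 143 CPM in Al-treated roots, against 388 and 518 CPM in control roots (-1.68, SE 0.15). POP2, which breaks down GABA, had 425 and 405 CPM in Al-treated roots, against 146 and 144 CPM in control roots (1.52, SE 0.09). Over the whole list of malate, citrate and GABA genes, 14 of 37 rose and 9 fell (5 without Al replicate 2).

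Of 13 tested genes of alternative respiration, 5 were higher (38.5%, against 25.1% of all genes) and 3 lower (23.1%, against 25.9%). The alternative oxidase AOX1A, which bypasses part of the respiratory chain, had 74.9 and 77 CPM in Al-treated roots, against 22.8 and 29.9 CPM in control roots (1.53, SE 0.13). The external NADH dehydrogenase NDB2 had 86.7 and 104 CPM in Al-treated roots, against 35.6 and 48.1 CPM in control roots (1.19, SE 0.16), and AOX2, usually a seed gene, had 3.07 and 2.34 CPM in Al-treated roots, against 0.238 and 0.0826 CPM in control roots (3.98, SE 0.47). Genes known to answer to impaired mitochondria rose in 11 of 19 tested members, and 1 fell (0 without Al replicate 1), with a median of 0.74. CYP81D8, a P450 gene often used as their marker, had 11.9 and 13.5 CPM in Al-treated roots, against 1.03 and 1.4 CPM in control roots (3.37, SE 0.21). Its promoter is shown with the mitochondrial dysfunction motif in capitals, which binds NAC factors and was found in 47.4% of the 19 promoters of this list, in part defined by it, against 1.75% of all and 2.98% of the promoters of genes that rose at least 2-fold (TAIR10.1, chr4:17571744-17571993, minus strand):
CYP81D8: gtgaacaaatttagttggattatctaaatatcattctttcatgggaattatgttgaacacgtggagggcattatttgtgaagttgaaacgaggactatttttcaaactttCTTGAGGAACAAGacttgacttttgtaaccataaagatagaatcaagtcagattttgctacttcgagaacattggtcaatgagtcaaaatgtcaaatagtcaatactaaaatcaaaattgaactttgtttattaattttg

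NAC factors, plant-specific regulators of stress and ageing, were mostly higher where they were called: 44 of 83 tested genes were called higher, 32 of them at least 2-fold, and 8 lower (4 without Al replicate 1, 5 without Al replicate 2 and 5 without control replicate 1), with a median of 0.69. NAC13, which binds the motif above, had 50.7 and 52.6 CPM in Al-treated roots, against 14 and 14.9 CPM in control roots (1.83, SE 0.10). NAC6 (ORE1), a master regulator of leaf ageing, had 91.6 and 77.4 CPM in Al-treated roots, against 3.97 and 4.46 CPM in control roots (4.32, SE 0.17), and NAP, which acts beside it, had 92.6 and 79.1 CPM in Al-treated roots, against 16.5 and 5.78 CPM in control roots (2.94, SE 0.34). In these factors the Al-treated libraries lay clear of the controls. ATAF1 had 111 and 93.7 CPM in Al-treated roots, against 13.5 and 21.1 CPM in control roots (2.56, SE 0.21), and ATAF2 had 166 and 159.6 CPM in Al-treated roots, against 22.4 and 38.7 CPM in control roots (2.41, SE 0.22). NAC019, of the abscisic acid response, had no counts in control roots and was at least 22.3-fold higher. MYB factors rose in 30 of 84 and fell in 13 (6 without Al replicate 1 or 2), and AP2/ERF factors rose in 25 of 81 and fell in 19 (12 without Al replicate 2 and 30 without control replicate 1). ABR1, an ERF of the abscisic acid response, had 19.7 and 16.7 CPM in Al-treated roots, against 1.43 and 2.15 CPM in control roots (3.35, SE 0.23), and DREB19, of drought tolerance, had 8.71 and 9.18 CPM in Al-treated roots, against 0.159 and 0.33 CPM in control roots (5.14, SE 0.52).

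**Figure D4:**
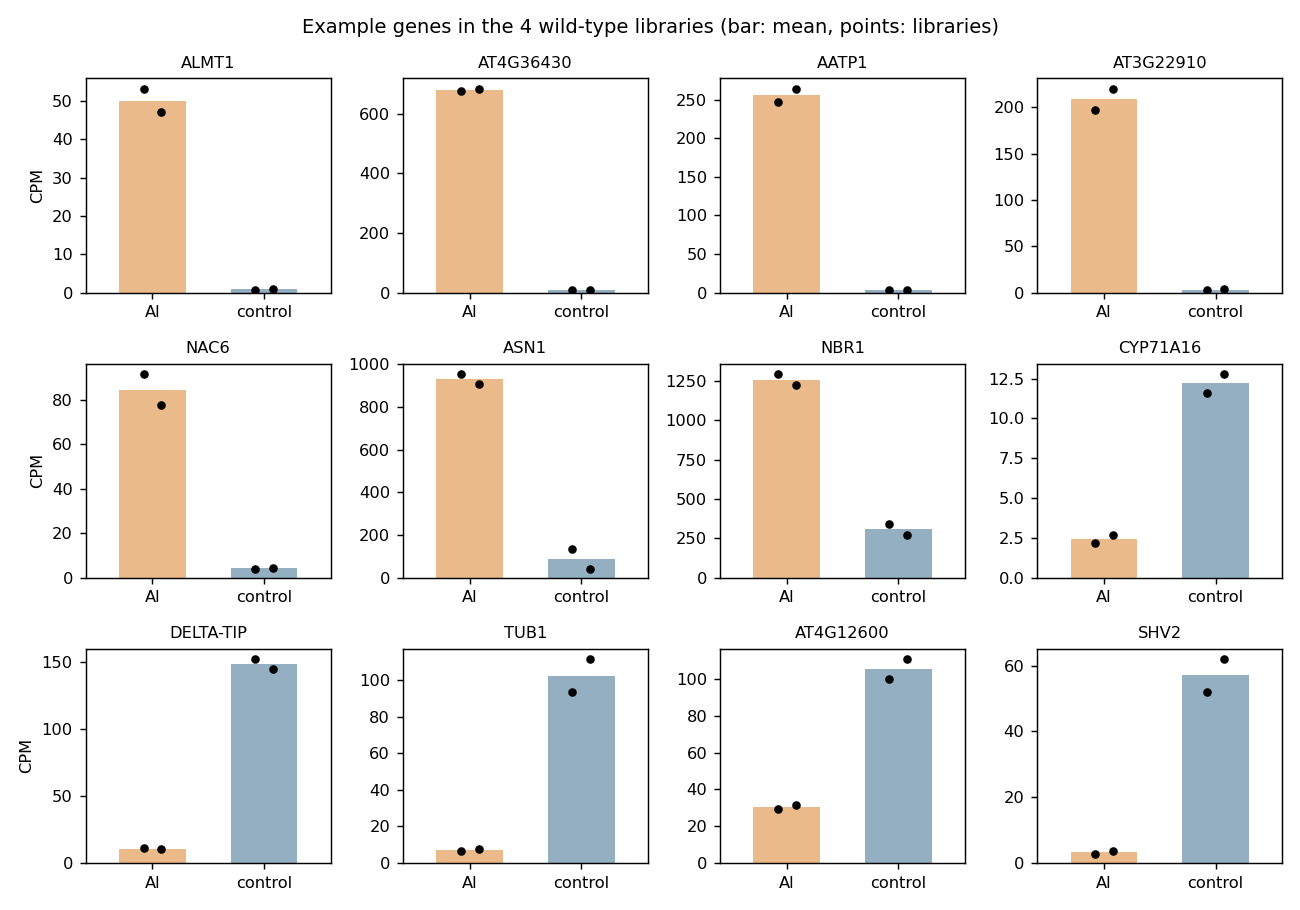
CPM of 12 example genes in the 4 wild-type libraries, on linear axes from 0 with a scale of their own. Bars are means of Al-treated (orange) and control (blue) roots and points are libraries. The first 7 genes (ALMT1 to NBR1) are higher and the last 5 (CYP71A16 to SHV2) lower in both Al-treated libraries than in either control.

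Calcium signalling genes changed in both directions. The calcium pump AT3G22910 (ACA13) had 197 and 220.3 CPM in Al-treated roots, against 2.46 and 3.63 CPM in control roots (6.10, SE 0.23), and its relative AT3G63380 (ACA12) had 57.7 and 57.8 CPM in Al-treated roots, against 13.8 and 21 CPM in control roots (1.73, SE 0.19). ACA9, a pump of the plasma membrane, had 2.82 and 2.77 CPM in Al-treated roots, against 19.8 and 22.8 CPM in control roots (-2.92, SE 0.20). ACA9 was lower in both Al-treated libraries than in either control, and the other two pumps were higher in both. Over the family 6 of 14 pumps rose and 5 fell (3 without Al replicate 1 or control replicate 2). Among cyclic nucleotide-gated channels CNGC13 had 33.6 and 31.3 CPM in Al-treated roots, against 2.62 and 3.47 CPM in control roots (3.41, SE 0.19), while CNGC14, the calcium channel of root gravitropism, had 11.1 and 13.2 CPM in Al-treated roots, against 44.9 and 45.6 CPM in control roots (-1.90, SE 0.12). Calcium-dependent protein kinases rose in 14 of 29 and fell in 7, and the CIPK kinases, which work with calcineurin B-like sensors, rose in 13 of 25 and fell in 5 (3 without Al replicate 1 or 2). CPK19 had 0.166 and 0.26 CPM in Al-treated roots, against 4.44 and 6.11 CPM in control roots (-4.57, SE 0.42), and CIPK17 had 20.07 and 15 CPM in Al-treated roots, against 3.17 and 3.14 CPM in control roots (2.47, SE 0.21). Cysteine-rich receptor-like kinases rose in 10 of 20, 8 of them by at least 2-fold, and fell in 4 (2 without Al replicate 1 or control replicate 1). CRK11 had 67.3 and 79.3 CPM in Al-treated roots, against 6.9 and 12.3 CPM in control roots (2.93, SE 0.26).

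Genes of cytokinin and gibberellin fell more often than they rose. Those of cytokinin synthesis, breakdown and response fell in 14 of 34 and rose in 6 (median -0.49). IPT3 had 1.33 and 1.13 CPM in Al-treated roots, against 4.44 and 4.96 CPM in control roots (-1.93, SE 0.24), and CYP735A2, which makes the trans-zeatin type, had 3.23 and 3.46 CPM in Al-treated roots, against 12.5 and 13.5 CPM in control roots (-1.95, SE 0.17). The degradation gene CKX4 had 0.332 and 1.04 CPM in Al-treated roots, against 6.42 and 9.83 CPM in control roots (-3.56, SE 0.48). The groups of libraries did not overlap for these genes. Of gibberellin genes 9 of 22 fell and 2 rose. GA2OX2, which inactivates gibberellin, had 45.4 and 44.8 CPM in Al-treated roots, against 4.52 and 2.81 CPM in control roots (3.61, SE 0.17), and the synthesis gene GA20OX2 had 1.49 and 0.953 CPM in Al-treated roots, against 4.2 and 3.22 CPM in control roots (-1.59, SE 0.30).

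Of ABC transporters of types B, C and G, 30 of 67 rose and 15 fell (median 0.39). ABCG1 had 141 and 150.2 CPM in Al-treated roots, against 37.4 and 45.8 CPM in control roots (1.81, SE 0.12), and the vacuolar conjugate pump ABCC3, whose reads are partly shared, had 181 and 227 CPM in Al-treated roots, against 60.6 and 69.5 CPM in control roots (1.65, SE 0.13). Each was higher in both Al-treated libraries than in either control. UDP-glycosyltransferases, which attach sugars to small molecules, rose in 35 of 107 (32.7%, against 25.1% of all genes) and fell in 27 (25.2%, against 25.9%). UGT87A2 had 34 and 32.3 CPM in Al-treated roots, against 2.14 and 3.47 CPM in control roots (3.56, SE 0.18), and UGT71C1 had 33 and 38 CPM in Al-treated roots, against 212 and 274 CPM in control roots (-2.77, SE 0.16). Cytochromes P450 fell in 66 of 165 and rose in 35. CYP78A9, of the family that sets organ size, had 0.498 and 0.346 CPM in Al-treated roots, against 9.91 and 12.6 CPM in control roots (-4.70, SE 0.39).

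Genes of endoplasmic reticulum bodies and of root triterpenes, both constitutive chemical defences, were mostly lower. Genes of the endoplasmic reticulum bodies and of the myrosinase-like glucosidase PYK10 that fills them fell in 13 of 15 tested members and the other 2 were not called, with a median of -1.78. NAI2, which shapes the bodies, had 140.3 and 167 CPM in Al-treated roots, against 654 and 676 CPM in control roots (-2.11, SE 0.12), and NAI1, the factor that switches the system on, had 8.13 and 10.7 CPM in Al-treated roots, against 28.7 and 36.4 CPM in control roots (-1.79, SE 0.18). JAL34, a lectin that aggregates the glucosidase, had 413 and 449.8 CPM in Al-treated roots, against 1471 and 1353 CPM in control roots (-1.71, SE 0.12). All lay below the controls in both Al-treated libraries. PYK10 itself had 774 and 982 CPM with Al, against 1904 and 2499 CPM without, with reads partly shared with relatives. The gene clusters that make root triterpenes fell in 8 of 14. BARS1, a cyclase that makes baruol, had 0.498 and 0.953 CPM in Al-treated roots, against 12.4 and 22.7 CPM in control roots (-4.58, SE 0.41), and CYP71A16, of the marneral cluster, had 2.16 and 2.69 CPM in Al-treated roots, against 11.6 and 12.8 CPM in control roots (-2.33, SE 0.19). Genes of tryptophan and indole defence went both ways, with 10 of 27 lower and 6 higher (median -0.31). Their median member was 0.33 higher on the log2 scale in control replicate 2 than in replicate 1. In the indole pathway CYP79B3, which leads to indole glucosinolates, had 45.8 and 47.1 CPM in Al-treated roots, against 151 and 177 CPM in control roots (-1.82, SE 0.16), whereas PAD3, the last step of the phytoalexin camalexin, had 26.2 and 25.2 CPM in Al-treated roots, against 8.25 and 8.26 CPM in control roots (1.64, SE 0.12).

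Markers of root hairs, non-hair epidermis, endodermis and root cap were mostly lower. In bulk samples fewer cells of a type and less RNA per cell cannot be told apart. All 13 tested root hair markers fell by at least 2-fold (median -3.48). SHV2, a wall protein of growing hairs, had 2.82 and 3.72 CPM in Al-treated roots, against 52 and 62 CPM in control roots (-4.12, SE 0.20), and the master factor RSL4 had 1.24 and 1.04 CPM in Al-treated roots, against 5.71 and 2.89 CPM in control roots (-1.91, SE 0.40). The summed level of these markers was 47.5 and 53.6 FPKM in Al-treated roots, against 336 and 454 FPKM in control roots, and no marker was at 0. The falls of LRX1, PRP3, RHD2 and several peroxidases stood beside this change, and its part in them was not tested. Markers of non-hair epidermis fell in 5 of 9 and rose in 1 (median -0.74), with a summed level of 69.1 and 69.1 FPKM in Al-treated roots, against 87.8 and 81.2 FPKM in control roots. Of endodermis markers 9 of 11 fell and 1 rose. The Casparian strip gene CASP4 had 0.829 and 0.953 CPM in Al-treated roots, against 20.15 and 14.8 CPM in control roots (-4.28, SE 0.30). In contrast, the factor MYB36, which switches on Casparian strip formation, had 34.9 and 32.3 CPM in Al-treated roots, against 20.9 and 21.5 CPM in control roots (0.66, SE 0.13). CASP4 was lower and MYB36 higher in both Al-treated libraries than in either control, and the suberin genes of the same cell layer were higher. Root cap markers fell in 5 of 8 (1 rose without Al replicate 2 or control replicate 2), with SMB at 10.12 and 8.14 CPM in Al-treated roots, against 19.4 and 17.8 CPM in control roots (-1.02, SE 0.19). Xylem markers fell in 1 of 15 (2 without control replicate 1) and rose in 2 (1 without Al replicate 1 and 0 without Al replicate 2), and phloem markers rose in 5 of 16 (3 without Al replicate 1 or control replicate 2, 8 without control replicate 1) and fell in 1 (0 without Al replicate 1). Of 10 tested pericycle markers, 3 rose and 2 fell (1 without Al replicate 1 or 2 or control replicate 1), with a median of 0.25. WOX11, a member of that list which starts new roots, had 25 and 29.6 CPM in Al-treated roots, against 2.93 and 1.57 CPM in control roots (3.59, SE 0.22). SKOR, another member, fell and is described below.

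The 2 control libraries differed most in genes of the quick answer to touch and wounding. Among 37 tested genes of that list, the median was 1.83 higher on the log2 scale in control replicate 2 than in replicate 1. WRKY40, a repressor of defence genes, had 11.4 and 13.8 CPM in Al-treated roots, against 3.57 and 46 CPM in control roots. CML37, a calmodulin-like protein, had 15.8 and 16.9 CPM in Al-treated roots, against 1.03 and 24.5 CPM in control roots, and MYB15 had 17.7 and 18.7 CPM in Al-treated roots, against 2.54 and 42.2 CPM in control roots. In each of these 3 genes the Al-treated libraries lay between the controls, and none was called (edgeR adjusted p = 0.36, 0.75 and 0.79). Without control replicate 2, WRKY40 and MYB15 were higher with Al, at 1.81 and 2.84 on the log2 scale, against -1.90 and -1.24 without control replicate 1. Over the list 6 genes were called higher with Al and 4 lower, against 20 higher and 1 lower without control replicate 2, and 23 lower without control replicate 1. Without Al replicate 1, 3 were higher and 0 lower, and without Al replicate 2, 0 were lower. The direction of this list changed with the control left out. TCH3, a calmodulin-like touch gene whose reads are partly shared, was the largest rise in the list, with 1001 and 1005 CPM in Al-treated roots, against 39.3 and 58.8 CPM in control roots (4.35, SE 0.23), and TCH4, a xyloglucan enzyme, had 254 and 286 CPM in Al-treated roots, against 37.4 and 82.5 CPM in control roots (2.17, SE 0.33). Genes of pattern-triggered immunity rose in 10 of 33 (16 without control replicate 2) and fell in 3 (8 without control replicate 1), with FLS2, the flagellin receptor, at 0.415 and 0.346 CPM in Al-treated roots, against 2.86 and 2.73 CPM in control roots (-2.84, SE 0.35). Of the 254 genes over 2-fold higher in control replicate 2, 49 were called higher with Al and 36 lower. Of the 86 genes over 2-fold higher in control replicate 1, 15 were called higher and 13 lower. Over all genes tested, 25.1% were called higher and 25.9% lower. The genes of both sets were picked for a wide spread between controls, which makes a call less likely.

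**Figure D5:**
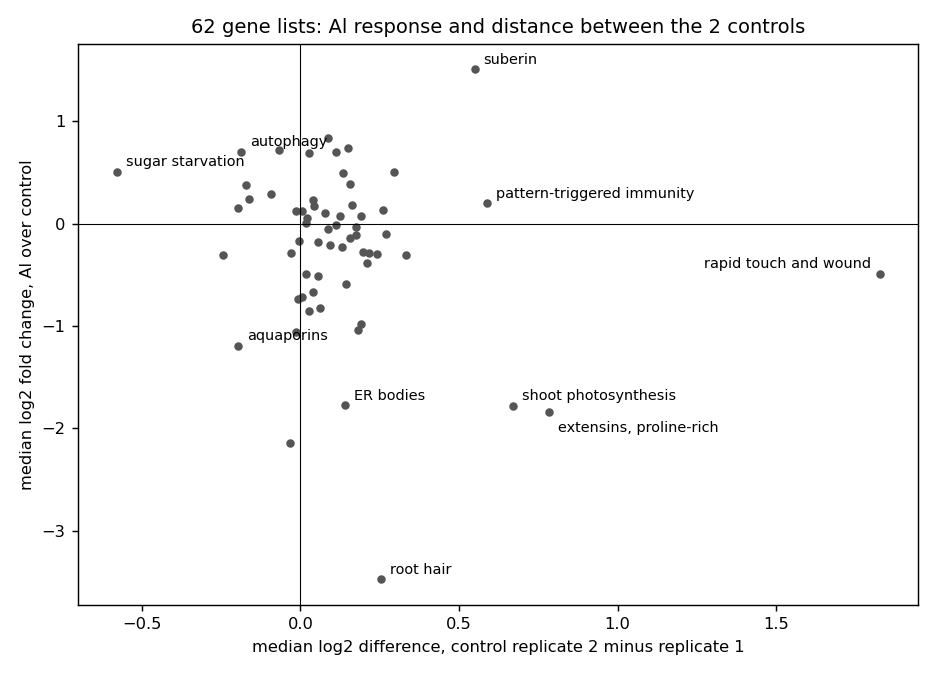
Median log2 fold change of Al-treated over control roots (vertical axis) against the median log2 difference of control replicate 2 minus replicate 1 (horizontal axis), with 1 point for each of 62 gene lists. Most lists lie within a narrow band around 0 on the horizontal axis, and the rapid touch and wound list lies furthest to the right, at 1.83.

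Transcripts of photosynthesis, which mark shoot tissue, also set the libraries apart. Of 17 such genes, 10 fell (17 without control replicate 1) and the summed level was 57.8 and 17.8 FPKM in Al-treated roots, against 82.4 and 170.02 FPKM in control roots. PSAD-1, of photosystem I, had 1.66 and 0.52 CPM in Al-treated roots, against 7.69 and 8.18 CPM in control roots (-2.84, SE 0.35). RBCS1A, the small subunit of Rubisco, had 12.8 and 1.56 CPM in Al-treated roots, against 6.27 and 39.2 CPM in control roots and was not called. Control replicate 2 was the highest of the 4 libraries for RBCS1A, and Al replicate 2 the lowest. Reads of the Rubisco genes are partly shared, and the part of shoot transcripts in the other results was not tested.

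Small families of carriers and signals showed a few clear members. The proton pump HA4 had 27.5 and 29.3 CPM in Al-treated roots, against 7.38 and 9.75 CPM in control roots (1.73, SE 0.15), and HA7 had 260.1 and 252 CPM in Al-treated roots, against 99.4 and 156 CPM in control roots (1.01, SE 0.20), while the abundant pumps HA1 and HA2, whose reads are shared, were not called. SKOR, which loads potassium into the xylem, had 5.23 and 7.62 CPM in Al-treated roots, against 27 and 20.9 CPM in control roots (-1.90, SE 0.19). Of 28 potassium channels and carriers, 11 rose and 5 fell. Among secreted peptides, with 10 of 47 higher (6 without Al replicate 1 or control replicate 1) and 11 lower, shares near those of all genes, CLE2, of the CLE family, had 1.49 and 1.39 CPM in Al-treated roots, against 7.54 and 5.37 CPM in control roots (-2.16, SE 0.27). The gene matched under the symbol CEP2 had 502 and 482 CPM in Al-treated roots, against 258 and 256 CPM in control roots (0.94, SE 0.11). Whether it is the peptide gene of that name is uncertain, and the counts of this list include it. Among core genes of low oxygen, 5 of 16 rose and 2 fell (1 without Al replicate 1), and ADH1, alcohol dehydrogenase, had 20 and 16.6 CPM in Al-treated roots, against 5.55 and 6.52 CPM in control roots (1.601, SE 0.23).

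Across the promoters, the share holding a motif was compared between genes that rose at least 2-fold, those that fell at least 2-fold and all genes tested, as a description. CGCGT was found in 11.9% of the 1711 promoters of genes that rose, 7.04% of the 2358 of genes that fell and 9.60% of all 20190. The abscisic acid response core ACGTG was found in 34.0% of the promoters of genes that rose, 30.5% of those that fell and 27.8% of all. For the WRKY core TTGAC the shares were 57.5, 54.7 and 51.5% in the same order. Site II TGGGCC was rarer among both changed sets, at 9.29 and 13.2%, against 18.3% of all. The TATA letters TATAAA were found in 57.3% of the promoters of either set, against 51.7% of all, and in 81.0% of the suberin promoters. A match of these letters does not show that a factor binds there.

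Some genes that changed alike lay side by side. Runs of at least 3 neighbouring tested genes that all rose at least 2-fold numbered 25, with 84 genes, and runs that all fell numbered 73, with 247 genes. Over all genes tested, 8.47% rose and 11.6% fell at least 2-fold, so some runs arise by chance. Whether there were more runs than that was not tested. The longest run of rises was on chromosome 2, from GSTU5 to AT2G29500, and held 6 genes, 4 of them glutathione transferases. The call of AT2G29500, at 1.16, was lost when any of the 4 wild-type libraries was left out. GSTU4 had 12.9 and 13.6 CPM in Al-treated roots, against 0.317 and 0.0826 CPM in control roots (5.96, SE 0.34). The longest run of falls was on chromosome 4, from AT4G12510 to AT4G12555, and held 7 genes, among them AIR1, an auxin-induced lipid-transfer-like protein, with 29 and 49.2 CPM in Al-treated roots, against 108 and 110.3 CPM in control roots (-1.48, SE 0.24). AT4G12510, of the same lipid-transfer-like family, had 4.23 and 8.57 CPM in Al-treated roots, against 211 and 229 CPM in control roots (-5.11, SE 0.32). On chromosome 3 the neighbours ABCA3, ABCA4, ABCA5 and ABCA6 all fell (ABCA3 -3.29 and ABCA6 -3.98), and on chromosome 5 the germin-like GLP6 and its neighbours AT5G39110, AT5G39120 and AT5G39130 all rose (AT5G39110 2.58 and AT5G39120 3.86). The call of AT5G39130 was lost without Al replicate 1. Neighbours in these tandem families resemble each other and can share reads, so a run is not that many separate measurements.

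The wild-type response had the same sign in cml24-2 for 10012 of the 10327 genes called (96.9%). The test of the difference between the responses called 61 genes (0.301% of those tested), with 41 above and 20 below in wild type. PRX52 had 119 and 103 CPM in Al-treated roots, against 1.19 and 0.413 CPM in control roots in wild type, and 98 and 94.3 CPM in Al-treated roots, against 8.71 and 7.56 CPM in control roots of cml24-2 (difference 3.52, adjusted p = 0.0043). AATP1 rose by 6.18 in wild type and 3.60 in cml24-2 (adjusted p of the difference 8.0e-04), and the peroxidase AT4G36430 by 6.30 and 3.74 (0.0013). For both genes the lines differed mainly in control roots. AATP1 had 3.41 and 3.63 CPM there in wild type and 19.3 and 18.1 CPM in cml24-2. With Al it had 247 and 264 CPM in wild type and 243 and 209 CPM in cml24-2. AT4G36430 had 8.17 and 9 CPM in control roots of wild type and 56.9 and 73.7 CPM in those of cml24-2. With Al it had 675 and 683 CPM in wild type and 879 and 872 CPM in cml24-2. XTH4, a wall enzyme that cuts and rejoins xyloglucan, was at -1.43 in wild type and 0.26 in cml24-2 (0.0053), and AGP22 at -3.48 and -1.36 (0.0086). The call of XTH4 was lost without wild-type Al replicate 1, and that of AGP22 when any of the 4 Al-treated libraries was left out. The number called depended on the libraries: it was 10 above and 2 below without wild-type Al replicate 1, and 213 above and 269 below without wild-type control replicate 1. CML24 itself (TCH2) had 43.3 and 39.3 CPM in Al-treated roots, against 43.5 and 102 CPM in control roots in wild type (-0.82, SE 0.37, adjusted p = 0.091 by edgeR) and was not called. Control replicate 2 stood apart from the other 3 wild-type libraries.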

How the data were processed

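RNA from wild-type and cml24-2 roots was sequenced in 8 libraries, 2 in each of 4 groups. The deposited tables, 1 per library, give the authors' expected counts per gene and FPKM (scaled by the listed gene length and the library size), made with RSEM per the submitters' processing notes. For the aligner, the genome build and the annotation, nothing is given in the sources used here. Genes listed in some libraries but not in others were set to 0 there. The files list only genes with an FPKM of at least 0.01.

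After rounding of the expected counts to integers, edgeR 4.0.16 under R 4.3.3 was run with TMM scaling and filterByExpr. All 8 libraries entered a single quasi-likelihood model with 1 mean for each group, which left 4 residual degrees of freedom, and p-values were adjusted by Benjamini-Hochberg over the 20262 genes tested. A gene was called at an adjusted p under 0.05. CPM use the TMM-scaled library sizes, and levels were compared between genes only as FPKM. Alternatives were DESeq2 1.42.0, RLE factors, other filters, limma 3.58.1 on FPKM, the replicate block, the wild-type libraries alone and leaving out each library. The gene lists were assembled from gene families and textbook pathways, and the members and lists were chosen with earlier results of these data known.

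Genes were named by a rule: ALMT1 and CML24, the 20 largest log2 changes each way with a mean of at least 2 FPKM in the higher group and groups that did not overlap, the 12 largest FPKM differences each way among genes called at least 2-fold, called members of each list and examples of it, the 12 genes furthest apart between the controls, the 6 largest differences between genotypes each way, and members of runs of neighbours. Not all genes the rule covers are printed, and which of them were printed was chosen after their values were seen. Names, promoters and neighbours come from RefSeq TAIR10.1, and motifs were counted on both strands from 250 bases before to 50 after the annotated start of 20190 genes, of which the 250 before are printed. The wild-type test was checked on simulated counts of 20262 genes, in which 67, 67 and 66 genes changed 1.5-fold, 2-fold and 4-fold. It recovered 25.4, 80.6 and 98.5% of them, with 16 false calls. Far more genes were called in the data, a case that the simulation did not cover.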

Additional observations from a re-analysis of the deposited data

Results flagged for a closer look

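The responses of wild type and cml24-2 to Al differed, by the test of the difference itself, in 17 genes named here. Each value below is the wild-type log2 fold change minus that of cml24-2, with the edgeR adjusted p of the difference. Such a difference can reflect levels without Al as well as levels with Al. Where the wild-type value was above, the differences were 10.75 for AT3G10113 (adjusted p = 0.018), 5.45 for the MATE carrier AT2G04050 (0.011), 4.76 for AT5G46130 (0.043), 4.56 for UGT74E2, a glycosyltransferase of the auxin indole-butyric acid (0.033), and 3.76 for NAC011 (0.0499). For PRX52 the difference was 3.52 (0.0043), for AATP1 2.58 (8.0e-04), for AT4G36430 2.56 (0.0013) and for EXT4 1.68 (0.02). It was 3.44 for the histone gene AT1G75600 (0.024) and 2.64 for GA2OX2 (0.0026). Where it was below, the differences were -3.12 for the dirigent-like AT4G11190 (0.043), -2.26 for MSRB6 (0.033), -2.12 for AGP22 (0.0086), -2.07 for XTH16 (0.015), -2.06 for AT3G06990 (0.025) and -1.69 for XTH4 (0.0053). Without wild-type Al replicate 1 the calls of 13 of the 17 were lost, and those of PRX52, AATP1, AT4G36430 and GA2OX2 held with any 1 library left out. Reads of UGT74E2, AT2G04050 and AT3G06990 are partly shared with other genes. AT3G10113 had no counts and AT5G46130 had few in wild-type control roots, so their fitted differences depend on the prior count. In wild type AT2G04050 had 0.829 and 0.606 CPM in Al-treated roots, against 0.317 and 0.165 CPM in control roots and was not called there, whereas in cml24-2 it had 3.1 and 2.51 CPM in Al-treated roots, against 36.6 and 48.6 CPM in control roots.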

How the results depend on the processing

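The counts of genes called in wild type kept within 1.5 times under every alternative, between 3844 and 5112 higher and between 3907 and 5272 lower. Their lowest values were those without an Al-treated library, and DESeq2 gave 4117 higher and 4132 lower. The counts for the difference between the genotypes moved. DESeq2 called 126 above and 74 below in wild type, against 41 and 20, and limma on log2(FPKM + 1) with no filter called 24 above. Leaving out 1 library at a time gave between 10 and 226 above and between 2 and 269 below, and the cause was not tested. With the replicate number as a block, 5112 genes were higher and 5206 lower, and 38 and 19 were called for the difference. Deviations of same-numbered libraries from their group means correlated between -0.105 and 0.144. With 2 libraries a group these values cannot show whether the numbers pair the samples, which the labels do not state. Without control replicate 2, WRKY40 turned to 1.81 and MYB15 to 2.84 (log2), against -1.90 and -1.24 without control replicate 1, and no other named gene reversed under the alternatives tried. Leaving out 1 library ended the wild-type call of 0 to 3 of 198 named genes, and the call for the difference between genotypes of 0 to 13 of 17. With 2 libraries a group, small changes and genes near the floor of 3 counts were often not detectable.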
